A study of Mus musculus and Ochotona curzoniae and Rattus norvegicus with 18 samples.

Results

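Transforming growth factor beta (TGF-beta) signalling was examined in cultured skin fibroblasts of the Tibetan pika, a small high-altitude relative of rabbits, and of the mouse. The 10 genes described are the ligands TGFB1, TGFB2 and TGFB3, the receptors TGFBR1, TGFBR2 and TGFBR3, and the latent TGF-beta binding proteins LTBP1, LTBP2, LTBP3 and LTBP4. They were chosen by gene symbol, and all 10 are among the 14421 genes that could be joined by symbol between the pika and mouse tables. The pika group (Ochotona curzoniae, no strain given) and the C57BL/6J mouse group held 3 RNA-seq libraries each. Both were labelled as fibroblasts from epidermis, were grown in DMEM with serum, and were lysed at 90% confluency. The labels give no genetic change, treatment or age for these cells. They do not say whether the replicates are separate animals or cultures, so the spread behind each p-value may be technical. The stated aims of the series are Epas1 binding sites and the expression of clock genes across species. Its 6 ChIP-seq samples and its rat and rabbit libraries were not used here.

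TGF-beta is made as a precursor whose cleaved propeptide, the latency-associated peptide, stays wrapped around the mature ligand and keeps it inactive. This latent complex is usually bound covalently to an LTBP, which ties it to fibrillin and fibronectin fibres of the matrix, and integrins or proteases later release the active ligand. The ligand then brings together the type II receptor TGFBR2 and the type I receptor TGFBR1, kinases that phosphorylate SMAD2 and SMAD3, while the betaglycan TGFBR3 presents ligand and is needed most for TGFB2. In skin fibroblasts the pathway is best known for raising collagen and contractile proteins.

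Values are FPKM, reads scaled to gene model length and library total, rescaled so that the joined genes of each library sum to 1000000. A gene was called higher or lower in pika where limma-trend gave an adjusted p below 0.05 and the log2 fold change reached 1 in size. The library totals behind the FPKM values, worked out from their steps, were 7703576 to 8481030 reads in pika and 3663102 to 5758950 reads in mouse. The joined genes held 87.3% to 87.4% of the FPKM in pika libraries and 37.1% to 38.4% in mouse libraries, so differences in level depend on the scale. Among 18 fibroblast markers 3 calls were higher and 5 lower, and 10 genes had no call, beside 28.7% higher and 23.5% lower over all tested genes. The summed level of these markers was 17494 to 17982 in pika and 21685 to 22131 in mouse. COL1A1, VIM and SPARC had the highest levels of that list in both species. The keratinocyte list was mixed, with 4 of its 6 tested genes called higher in pika. Its genes ITGA6 and PERP averaged 76.9 and 70.2 in pika and 9.79 and 2.65 in mouse. DSP averaged 0.153 in pika and 45.1 in mouse. The keratins KRT5 and KRT14, named after their values were seen, were listed at 0 in pika and averaged 0.220 and 0.209 in mouse. Species, genome and gene annotation cannot be told apart in this design, and in bulk RNA fewer cells of a type and less RNA per cell cannot be told apart.

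The 3 classes differed in different ways. Among the ligands, TGFB2 was higher and TGFB3 lower in pika, and TGFB2 was the leading ligand in pika and TGFB3 in mouse. Among the receptors, TGFBR2 and TGFBR3 were lower and TGFBR1 was not called. Among the LTBPs, LTBP2 and LTBP3 were lower and LTBP4 was higher. Of the 10 genes, 2 had a higher call and 5 a lower call, while 3 had none. Calls were common in this comparison, since 52.2% of the 10350 tested genes were called, 28.7% higher and 23.5% lower, and the count of members called is therefore no result about these genes. All 10 genes had an adjusted p under 0.05 by limma-trend, as had 88.6% of all tested genes. The groups did not overlap for any of the 10 genes, as for 89.0% of all tested genes. The median log2 fold change was -0.67 over the 10 genes and 0.21 over all tested genes.

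**Figure D1:**
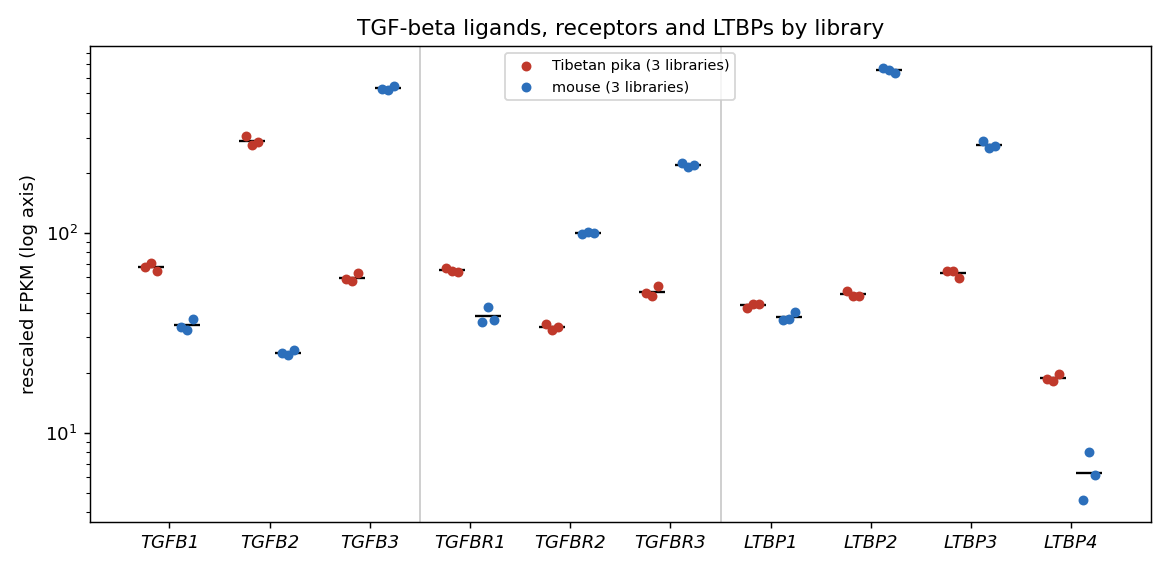
Rescaled FPKM (log axis) of each gene in the 3 pika libraries (left, red) and 3 mouse libraries (right, blue), with horizontal bars at the means. TGFB2 lies near 289.3 in pika and 25.1 in mouse, while TGFB3 and LTBP2 lie highest in mouse.

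The upstream sequences of 3 of the mouse genes are shown because these genes hold the leading ligand of pika (Tgfb2), the LTBP with the largest difference (Ltbp2) and the ligand that differed least (Tgfb1). RefSeq windows were at hand for 8 of the 10 genes. Each run is the 250 bases before a RefSeq transcript start in GRCm38.p6, written 5′ to 3′ on the strand of the gene, and capitals mark the motifs searched. They lie at chr1:186705990-186706239 on the minus strand for Tgfb2, at chr12:84876492-84876741 on the minus strand for Ltbp2 and at chr7:25686752-25687001 on the plus strand for Tgfb1. The Tgfb2 window lies inside the annotated span of the gene and the Ltbp2 window overlaps the end of the span of Ltbp2.
Tgfb2: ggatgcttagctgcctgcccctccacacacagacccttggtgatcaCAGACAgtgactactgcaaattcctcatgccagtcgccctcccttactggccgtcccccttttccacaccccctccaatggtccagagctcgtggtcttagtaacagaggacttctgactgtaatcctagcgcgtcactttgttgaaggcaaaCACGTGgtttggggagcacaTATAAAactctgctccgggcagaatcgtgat
Ltbp2: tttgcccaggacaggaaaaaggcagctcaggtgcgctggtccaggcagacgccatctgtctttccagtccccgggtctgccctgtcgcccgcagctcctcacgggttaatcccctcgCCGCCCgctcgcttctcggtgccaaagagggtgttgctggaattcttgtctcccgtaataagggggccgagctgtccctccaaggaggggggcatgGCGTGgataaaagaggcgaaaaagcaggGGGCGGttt
Tgfb1: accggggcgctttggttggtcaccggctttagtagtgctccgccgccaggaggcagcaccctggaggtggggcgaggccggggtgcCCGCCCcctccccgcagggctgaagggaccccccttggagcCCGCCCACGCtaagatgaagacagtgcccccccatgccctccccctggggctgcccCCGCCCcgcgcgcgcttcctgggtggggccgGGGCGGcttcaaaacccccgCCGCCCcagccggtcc
The motifs searched on both strands were the E-box CACGTG, the hypoxia response cores ACGTG (which also lies inside the E-box) and GCGTG, the cyclic AMP element TGACGTCA, the AP-1 site TGANTCA, the SMAD motifs GTCTAGAC and CAGACA, the GC box GGGCGG and TATAAA. The Tgfb2 window held CACGTG, the sequence that CLOCK and BMAL1 can bind, ending 46 bases before the start. Of the 12 windows searched for these genes, it alone held CACGTG. It also held TATAAA ending 26 bases before it, and 1 CAGACA. Of all 32851 RefSeq windows of this length, 6.02% held CACGTG, 12.4% held TATAAA and 17.1% held CAGACA. The Tgfb1 window held neither the E-box nor TATAAA and had 5 GC boxes, and the bases of 1 of them overlap a GCGTG core. The Ltbp2 window held 2 GC boxes and 1 GCGTG core. The GC box stood in 32.7% of all windows and GCGTG in 28.2%. A match is a stretch of letters, and binding was not analysed here.

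TGFB2, the ligand that depends most on betaglycan, was at 305.8, 276.7 and 285.2 in the pika libraries and at 25.04, 24.4 and 25.9 in the mouse libraries. Every pika library lay far above every mouse library. The mean was 289.3 ± 15.0 in pika and 25.1 ± 0.750 in mouse (SD, n = 3 each), an 11.5-fold difference, and the log2 fold change was 3.47 (SE 0.06, limma-trend adjusted p = 4.7e-11, 95% interval 3.35 to 3.60). It rested on 8508 reads over the pika libraries and 390 over the mouse libraries. In the mouse genome Tgfb2 (ENSMUSG00000039239) lies on chromosome 1 from 186622787 to 186709697. Of all tested genes, 97.8% had a lower log2 fold change.

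TGFB3, the ligand known for its part in palate fusion and scar-poor healing, went the other way. It was at 59.1, 57.4 and 62.8 in pika and at 528.9, 518.1 and 544.2 in mouse. No pika library came near the mouse range. The means were 59.7 ± 2.73 in pika and 530.4 ± 13.1 in mouse, which was 8.88-fold higher in mouse. Its log2 fold change was -3.13 (SE 0.04, limma-trend adjusted p = 2.3e-11). Tgfb3 (ENSMUSG00000021253) lies on mouse chromosome 12 from 86056743 to 86079041.

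TGFB1, the ligand most studied in fibrosis, was at 67.5, 70.9 and 64.4 in pika and at 33.7, 32.7 and 37.0 in mouse. The groups did not overlap, but the difference was smaller than for the other ligands. The difference, 0.95 on the log2 scale (SE 0.07, limma-trend adjusted p = 1.1e-06), stayed under the fold minimum, although its 95% interval, 0.79 to 1.12, spanned it. TGFB1 had the largest ratio of mouse to pika gene model length of the 10, 4.11, with 1228 bases in pika and 5042 in mouse. Counted as reads that are not divided by length, its log2 fold change was -0.02 (limma-trend adjusted p = 0.83), so the direction for TGFB1 depends on the gene models. These lengths and reads are the smallest whole numbers that give the deposited values, and both could be larger by a shared factor. Without mouse replicate 3 the log2 fold change of TGFB1 was 1.00 and the gene was called. Tgfb1 (ENSMUSG00000002603) lies on mouse chromosome 7 from 25687002 to 25705077.

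The ligand mixture within a library does not depend on the scale between libraries. TGFB2 made up 70.7%, 68.3% and 69.2% of the summed ligand FPKM in pika and 4.26%, 4.25% and 4.27% in mouse. TGFB3 made up 13.7%, 14.2% and 15.2% in pika and 90.0%, 90.1% and 89.6% in mouse. TGFB1 averaged 16.2% ± 1.09 in pika and 5.84% ± 0.225 in mouse. The TGFB2 share was 65.1 percentage points higher in pika, with an exact two-sided permutation p of 0.1, the smallest that 3 against 3 libraries can give. Without division by gene length the TGFB2 share was 81.0% ± 0.867 in pika and 6.89% ± 0.0113 in mouse. The TGFB1 share was then nearly alike, at 8.95% ± 0.659 in pika and 8.21% ± 0.307 in mouse (exact permutation p = 0.2). The summed ligand level was 416.6 ± 14.1 in pika and 590.0 ± 16.1 in mouse, a ratio of 0.706 (exact permutation p = 0.1), but the direction turned on the FPKM as deposited, where the sum was 193.3 ± 6.13 in pika and 111.5 ± 3.91 in mouse.

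**Figure D2:**
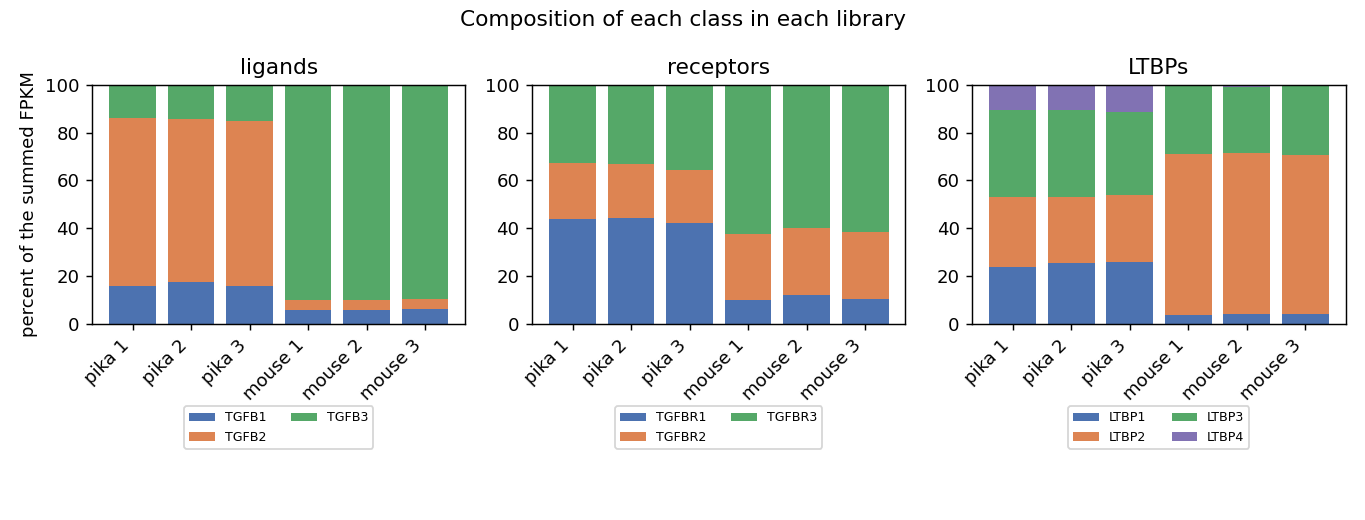
Stacked bars give the percent of the summed FPKM of the ligands, receptors and LTBPs held by each gene in each library, pika left of mouse. TGFB2 takes 68.3% to 70.7% of the ligand sum in pika libraries and TGFB3 takes 89.6% to 90.1% in mouse libraries.

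Of the receptors, the 2 that bind or present ligand first were lower in pika and the type I kinase was not called. TGFBR3, betaglycan, the coreceptor that hands TGFB2 to the signalling receptors, was at 49.9, 48.4 and 54.1 in pika and at 224.3, 215.1 and 218.3 in mouse. Its pika libraries were all lower than its mouse libraries. The log2 fold change was -2.09 (SE 0.05, limma-trend adjusted p = 6.3e-10). The ratio of TGFB2 to TGFBR3, of a ligand to the coreceptor that presents it, was 5.71 ± 0.429 in pika and 0.115 ± 0.00368 in mouse (SD, n = 3 each, exact permutation p = 0.1).

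TGFBR2, the type II receptor that binds ligand first, was at 35.1, 32.8 and 33.9 in pika and at 98.8, 100.9 and 99.5 in mouse. The spread within each species was small beside the gap between them. Its log2 fold change was -1.53 (SE 0.06, limma-trend adjusted p = 6.5e-09), or 2.94-fold higher in mouse. TGFBR1, the type I kinase also called ALK5, was at 66.9, 64.6 and 63.8 in pika and at 35.7, 42.4 and 36.5 in mouse. It was thus somewhat higher in each pika library, and the change was 0.76 on the log2 scale (SE 0.08, limma-trend adjusted p = 1e-05), under the fold minimum.

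The ratio of TGFBR1 to TGFBR2 was 1.903, 1.97 and 1.88 in pika and 0.361, 0.421 and 0.367 in mouse. The pika libraries thus had more type I than type II receptor FPKM and the mouse libraries less, a 5.01-fold difference of the ratio (exact permutation p = 0.1). TGFBR1 held 43.4% ± 1.23 of the receptor FPKM in pika and 10.7% ± 1.00 in mouse, TGFBR2 held 22.7% ± 0.427 in pika and 27.9% ± 0.338 in mouse, and TGFBR3 held 33.9% ± 1.53 in pika and 61.4% ± 1.26 in mouse. The summed receptor level was 149.8 ± 3.45 in pika and 357.2 ± 2.499 in mouse, but 69.5 ± 1.44 in pika and 67.5 ± 0.408 in mouse on the FPKM as deposited, so its direction depends on the scale. The TGFBR2 share differed by -5.27 percentage points (exact permutation p = 0.1), the smallest shift of the 3 receptors.

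LTBP2 showed the largest difference of the 10 genes on the shared-gene scale, although TGFB2 was ahead of it without rescaling and without division by gene length. It is a fibrillin-binding matrix protein that, unlike the other LTBPs, does not bind latent TGF-beta. It was at 51.6, 48.5 and 48.3 in pika and at 674.2, 658.7 and 633.3 in mouse. All pika libraries lay far below all mouse libraries, with means of 49.4 ± 1.84 in pika and 655.4 ± 20.7 in mouse and a log2 fold change of -3.70 (SE 0.04, limma-trend adjusted p = 9.3e-12). The reads behind it were 3050 in pika and 14362 in mouse. Ltbp2 (ENSMUSG00000002020) lies on mouse chromosome 12 from 84783212 to 84876558. It was the most abundant of the 10 genes in mouse, above 97.9% of tested genes.

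LTBP3, which binds all 3 latent ligands and is needed for bone and tooth growth, was at 64.5, 64.3 and 59.8 in pika and at 287.5, 268.0 and 273.4 in mouse. Its log2 fold change was -2.12 (SE 0.05, limma-trend adjusted p = 3.6e-10), and the groups lay well apart. LTBP4, which binds latent TGFB1 and helps elastic fibres assemble, was the only LTBP called higher. It was at 18.7, 18.2 and 19.7 in pika and at 4.603, 8.04 and 6.15 in mouse. The mouse libraries were low and scattered, with 32, 36 and 36 reads, and the log2 fold change was 1.48 (SE 0.17, limma-trend adjusted p = 2.6e-05).

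LTBP1, the form best known for storing latent TGF-beta in fibroblast matrix, was at 41.9, 44.2 and 44.2 in pika and at 36.6, 37.2 and 40.2 in mouse. The ranges were separate but close, and the difference was 0.19 on the log2 scale (limma-trend adjusted p = 0.03, 95% interval 0.03 to 0.35), well inside the fold minimum. Its limma-trend adjusted p did not stay below 0.05: it was 0.83 with median-of-ratios scaling, 0.33 with a trimmed mean of M values, and 0.062 to 0.082 without mouse replicate 1 or 2 or pika replicate 2 or 3. Across the class, LTBP2 held 28.3% ± 0.777 of the LTBP FPKM in pika and 67.1% ± 0.666 in mouse (exact permutation p = 0.1), LTBP1 held 24.9% ± 1.02 in pika and 3.90% ± 0.292 in mouse, LTBP3 held 36.0% ± 1.05 in pika and 28.3% ± 0.638 in mouse, and LTBP4 held 10.8% ± 0.566 in pika and 0.644% ± 0.184 in mouse. The summed LTBP level was 174.6 ± 2.46 in pika and 976.0 ± 25.2 in mouse, and it was also lower in pika on the FPKM as deposited, at 81.0 ± 1.13 in pika and 184.4 ± 2.71 in mouse. The LTBP sum over the ligand sum was 0.419 ± 0.0121 in pika and 1.66 ± 0.0747 in mouse (exact permutation p = 0.1). This LTBP sum includes LTBP2, which does not bind latent TGF-beta and held 28.3% of it in pika and 67.1% in mouse.

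In pika the 10 genes were ordered by level from TGFB2, at 289.3, to LTBP4, at 18.8. TGFB1, TGFBR1, LTBP3 and TGFB3 followed TGFB2 with overlapping ranges between neighbours, as did TGFBR3 and LTBP2 below them. TGFB2 stood above 94.1% of tested genes in pika and above 41.5% in mouse. In mouse LTBP2, TGFB3, LTBP3, TGFBR3 and TGFBR2 came first, in that order and with no overlap between neighbours. TGFBR1, LTBP1 and TGFB1 followed with overlapping ranges between neighbours, then TGFB2 and last LTBP4, at 6.27.

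The profiles most like each ligand were taken as the smallest Euclidean distance of log2(value + 1) over the 6 libraries. For TGFB1 they were RMND5A (0.130), MDFIC (0.152) and CSTF1 (0.162). For TGFB2 they were UBE2V2 (0.304), SKA2 (0.400) and ATAD2 (0.4999), and for TGFB3 they were MDM2 (0.139), THBS2 (0.280) and IER3 (0.290). These distances rest on level and on the gap between 2 species, and describe likeness only.

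The scale and the gene models touch these differences unequally. Without rescaling, the log2 fold change of the median gene was 1.29 in place of 0.21, and 5 of the 10 genes were called higher and 2 lower, with 69.0% of all genes called. TGFB1, TGFBR1 and LTBP1 were then called higher (2.11, 1.93 and 1.37), and TGFBR2, TGFBR3 and LTBP3 were no longer called (-0.25, -0.79 and -0.82). TGFB2, LTBP4, TGFB3 and LTBP2 kept their calls under each of the 15 alternatives. The pika gene models were shorter than the mouse models for all 10 genes, by factors of 1.18 for LTBP4 to 4.11 for TGFB1, against a median factor of 2.26 over 9947 tested genes. Without division by gene length, where 51.9% of all genes were called, the same members were called and the log2 fold changes of the called genes were 3.38 for TGFB2, 2.32 for LTBP4, -3.20 for TGFB3, -2.30 for TGFBR2, -2.53 for TGFBR3, -3.26 for LTBP2 and -1.55 for LTBP3.

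**Figure D3:**
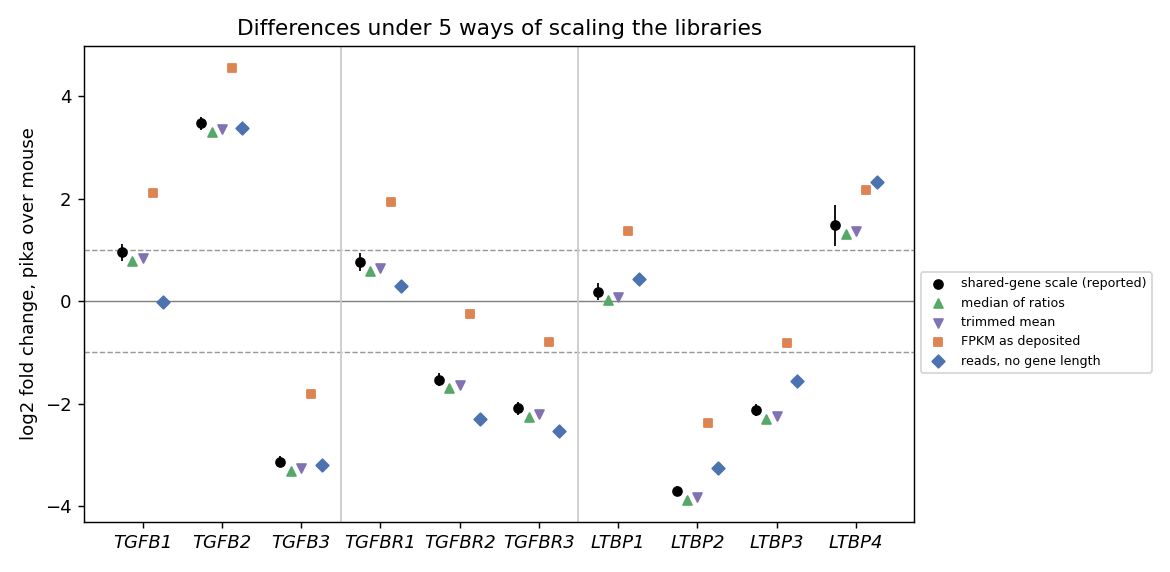
Log2 fold change, pika over mouse, of each gene on the shared-gene scale (black, with 95% intervals), with 2 other scalings, with FPKM as deposited and with reads not divided by gene length; dashed lines mark the fold minimum. FPKM as deposited shifts every gene upward, and TGFB1 moves to -0.02 with undivided reads.

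**Figure D4:**
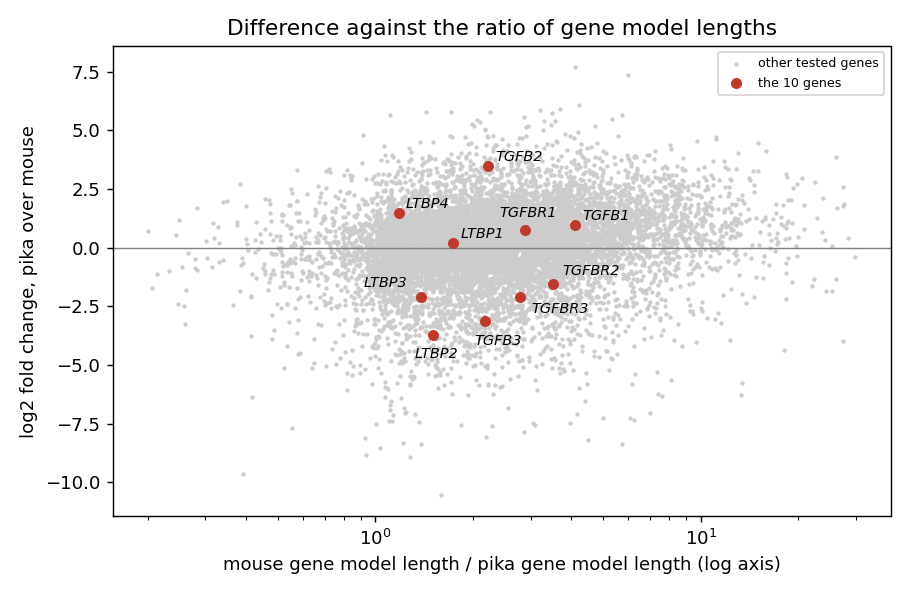
Log2 fold change, pika over mouse, against the ratio of mouse to pika gene model length (log axis) for the 10 genes (red) and the other tested genes with a ratio of 0.2 to 30 (grey, 9929 genes in all). TGFB2 and TGFB3 have nearly the same length ratio, 2.22 and 2.17, and lie on opposite sides of 0.

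Genes that store or activate the latent complex had more lower than higher calls on the shared-gene scale. Without rescaling they had 9 calls in each direction, beside 6030 higher and 1107 lower of all 10350 tested genes. The list holds 26 genes, of which 23 were tested. Like the other pathway lists, it was chosen with earlier results of these data known. On the shared-gene scale higher calls numbered 6 and lower calls 12, and 5 had no call. The median log2 fold change was -1.19, beside 0.21 over all tested genes and background shares of 28.7% higher and 23.5% lower. LRRC32, or GARP, the surface protein that anchors latent TGF-beta, was at 38.2 ± 3.90 in pika and 1018 ± 17.7 in mouse (-4.71). FMOD (-5.01), a collagen-binding proteoglycan, and the integrin subunits ITGB3 (-4.33) and ITGB5 (-3.85) were also lower. ITGB3 rested on 6 recovered reads in pika. Higher in pika were the fibrillin FBN2 (3.46), at 67.0 ± 1.78 in pika and 5.26 ± 1.13 in mouse, the proteoglycan ASPN (2.505), the crosslinking enzyme TGM2 (1.77) and the integrin subunit ITGAV (1.56). FN1, the fibronectin that latent complexes attach to, averaged 1966 ± 29.8 in pika and 1720 ± 24.96 in mouse and had no call, nor had PLAT (-0.52) and EMILIN1 (-0.94). FBN1 (-2.62), the main fibrillin of adult matrix, and THBS1 (-2.77), which can activate latent TGF-beta, were named after their values were seen. ITGB6, NRROS and ADAMTSL2, also named after their values were seen, were too low to test. Without gene length the counts were 4 higher and 13 lower, beside 25.6% higher and 26.3% lower over all tested genes. ITGAV lost its call there (0.72), while PLAT was past the fold minimum (-1.30). EMILIN1 was at -0.59 and FN1 at 0.72 without gene length.

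Signal transduction genes, a list that also holds surface receptors and inhibitors of the pathway, were mostly not called. Among 30 tested there were 4 higher calls, 7 lower calls and 19 genes without a call, with a median log2 fold change of -0.03. Over all tested genes 28.7% were called higher and 23.5% lower. The share of lower calls was thus near the background, and the share of higher calls was below it. SMAD3, a receptor-activated SMAD, was at 10.6 ± 1.31 in pika and 110.6 ± 1.22 in mouse (-3.27), whereas SMAD2, named after its value was seen, averaged 127.1 in pika and 72.1 in mouse (0.81) and had no call. PPP1R15A (-3.57), an adaptor of the phosphatase that acts on TGFBR1, PMEPA1 (-2.37), a feedback inhibitor of the pathway, and the ubiquitin ligase SMURF1 (-1.88) were lower. BAMBI, a decoy receptor that lacks a kinase domain, averaged 41.2 ± 6.84 in pika and 8.36 ± 2.53 in mouse (2.19), and TRAF6 (1.74), TGIF2 (1.63) and TRIM33 (1.43) were also higher. The genes without a call that had the highest levels were FKBP1A (0.47), which holds TGFBR1 inactive, STRAP (0.15) and the ubiquitin ligase SMURF2 (-0.05, limma-trend adjusted p = 0.26). Without gene length BAMBI (0.64), TRAF6 (0.86), TGIF2 (0.33) and TRIM33 (0.13) all lost their calls. FKBP1A was then at -1.38, past the fold minimum in the other direction. SMURF2 also changed direction, to 0.82, and STRAP was at 0.10. The counts were then 2 higher and 11 lower, beside 25.6% higher and 26.3% lower over all tested genes. The 2 called higher were SMAD2 (1.07) and LEMD3 (1.60), named after their values were seen. Without rescaling the counts were 18 higher and 3 lower, where 69.0% of all 10350 tested genes were called, 6030 higher and 1107 lower.

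Genes known to respond to TGF-beta were mostly lower in pika or not called on the shared-gene scale. Without rescaling 11 were called higher and 12 lower, beside 6030 higher and 1107 lower of all 10350 tested genes. On the shared-gene scale the 30 tested genes had 2 higher calls, 16 lower calls and 12 genes without a call. Their median log2 fold change was -1.21, beside 28.7% higher, 23.5% lower and a median of 0.21 over all tested genes. Like the other pathway lists, this list was chosen with earlier results of these data known. The lists also overlap. PMEPA1 is among the genes that are also counted in the signal transduction list, and FN1 is also in the storage and activation list. ACTA2, a contractile actin that marks myofibroblasts, averaged 18.9 ± 2.17 in pika and 9605 ± 141.1 in mouse (-8.92). IL11, named after its values were seen, is listed at 0 in every pika library and averaged 28.6 in mouse. CNN1 (-8.35, with 7 recovered reads in pika), ADAMTS5 (-6.08) and POSTN (-5.48) were lower as well. TGFBI, at 38.7 ± 1.14 in pika and 8.80 ± 2.94 in mouse (2.06), and the oxidase NOX4 (1.56) were higher. COL1A1, at 4774 ± 129.6 in pika and 4799 ± 117.0 in mouse (-0.01, limma-trend adjusted p = 0.80), TAGLN (0.16) and CCN2 (0.15) were not called. Without gene length 1 of the list was called higher and 18 lower, beside 25.6% higher and 26.3% lower over all tested genes. NOX4 lost its call there (0.75).

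Markers of other cell types also differed between the species, where 28.7% of all tested genes were called higher and 23.5% lower. Of 10 pericyte and smooth muscle markers, 9 were tested, 3 were called higher and 5 lower, and their summed level was 156.1 to 180.3 in pika and 10327 to 10585 in mouse. ACTA2, which is also in the response list, made up most of the mouse sum but not of the pika sum, at a mean of 18.9 in pika and 9605 in mouse. Of 10 endothelial markers, TEK alone was tested (-4.25), and the summed level was 0.895 to 2.70 in pika and 35.3 to 40.9 in mouse. Of 10 macrophage and leukocyte markers 4 were tested and 3 called lower, with sums of 14.5 to 15.9 in pika and 117.8 to 151.4 in mouse, and 5 were listed at 0 in pika. Most of the mouse sum was LYZ2, which was set against the pika gene LYZ, so that related lysozyme genes may be mixed there. Of 6 joined melanocyte markers 2 were tested and 1 was called higher, PMEL (2.51), with sums of 67.9 to 78.3 in pika and 54.7 to 58.1 in mouse. The other, MITF, made up most of the sum in each species. It averaged 40.1 in pika and 50.3 in mouse (-0.32) and had no call. Of 19 joined keratinocyte markers 6 were tested, 4 called higher and 2 lower, with sums of 191.8 to 206.4 in pika and 73.2 to 82.7 in mouse, and 8 were listed at 0 in pika. The part of these cell types in the differences of the 10 genes was not tested.

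**Figure D5:**
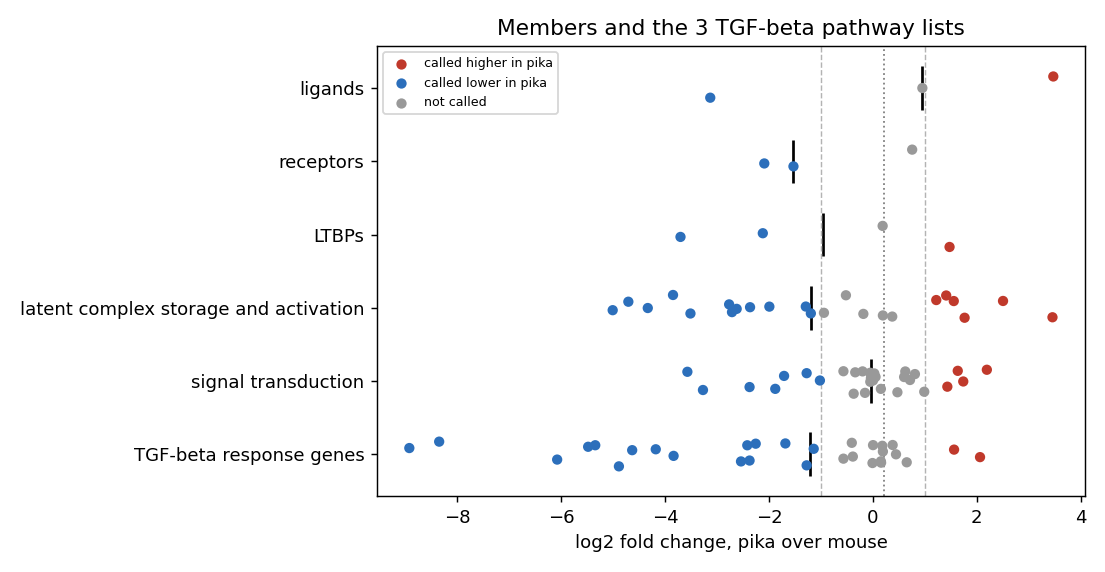
Log2 fold change, pika over mouse, of every tested gene of the 3 member classes and the 3 pathway lists, coloured by call, with black bars at list medians, dashed lines at the fold minimum and a dotted line at the median of all tested genes (0.21). The response genes reach furthest to the left, down to ACTA2 at -8.92.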

How the data were processed

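The authors deposited 1 FPKM value per gene and library, per the file headers. STAR 2.6.1a, featureCounts, edgeR 3.28.1, CASAVA 1.9 and the build GRCm38 are listed without an order for all species, per the submitters' processing notes, and which annotation was used per species was not stated there. Pika rows carry gene symbols. Of 49585 mouse Ensembl identifiers, 49326 found a symbol in the reference tables. Symbols found once in each table joined 14421 genes, with CTGF, LRRC33, TRP63 and LYZ read as CCN2, NRROS, TP63 and LYZ2. The 6 rat and rabbit libraries were not analysed here.

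The steps between FPKM values gave whole reads, gene model lengths and the total of each library (relative tolerance 4e-09). These reads made up 95.7% to 96.4% of each total and are the smallest whole numbers possible. Replicates were compared on these reads, and the mean chi-square per gene was 1.35 to 1.52 for pika pairs and 1.48 to 2.92 for mouse pairs, where sampling alone gives about 1.

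The 10350 genes with a mean deposited FPKM, before rescaling, of 1 or more in at least 1 species entered limma-trend on log2(rescaled value + 1), using R 4.3.3 with limma 3.58.1, two-sided, with Benjamini-Hochberg adjustment over all of them. This scale understates the change of low genes. Shares and ratios were compared by exact permutation over the 6 libraries. The fitting step was tested on simulated data. Tables and plots were made in Python 3.11.15 (pandas 2.3.3, numpy 2.4.6, matplotlib 3.10.9). The members, lists and alternatives were chosen with earlier results of these data known. All 10 members are named. From each pathway list up to 4 called genes in each direction with the largest fold change and up to 3 uncalled genes with the highest level could be named, and from each marker list up to 3 of the highest level. Genes outside this rule are marked as named after their values were seen. Alternatives changed the pseudocount, filter, scaling, gene length, trend, replicate block or left out a library.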

Additional observations from a re-analysis of the deposited data

How the results depend on the processing

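Of 324 recomputed values, 302 were labelled as unchanged. For a fold change this meant the same direction and call status, and for a share difference a shift within the spread. For a count of calls it meant a limited relative change. The storage and activation counts without rescaling, 9 higher and 9 lower against 6 and 12, were thus labelled as unchanged. The TGFB1 log2 fold change reversed to -0.02 (unrounded -0.0185) without division by gene length, and the cause was not tested beyond the length ratio given above. Without rescaling, 5 members were called higher and 2 lower, 6030 genes higher and 1107 lower, 18 signal transduction genes higher and 3 lower, 11 response genes higher and 12 lower, and 9 storage and activation genes higher and 9 lower. Higher calls were 55% of calls on the shared-gene scale, 48.9% with median-of-ratios scaling, 50.9% with an unweighted trimmed mean of M values and 84.5% without rescaling. The trimmed mean stood in for the planned TMM factors, which were not run. With the filter at 5 FPKM fewer genes were tested and 1585 were called lower. Without gene length, 2 signal transduction genes were called higher and 11 lower, 1 response gene higher and 18 lower, 4 storage and activation genes higher and 13 lower, and the pika minus mouse difference was 74.1 percentage points for the TGFB2 share, -9.86 for TGFBR2 and -43.1 for LTBP2. Of all tested genes, 25.6% were called higher and 26.3% lower without gene length. Leaving out each library in turn gave 2 to 3 members called higher and 5 lower, 2938 to 2984 genes higher and 2417 to 2449 lower, 4 to 5 signal transduction genes higher and 6 to 7 lower, and share differences of 64.5 to 65.7 points for TGFB2, -5.51 to -5.10 for TGFBR2 and -39.3 to -38.5 for LTBP2. The replicate block gave 2972 genes called higher and 2434 lower, against 2970 and 2434 without it, and changed no call of the 10 genes. Same-numbered libraries shared only a number, with correlations of their deviations of -0.0094, 0.050 and 0.013, and not every library correlated best with its own number. LTBP4 had 104 reads over the mouse libraries, the fewest of the 10 genes, which limits its precision.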
